A study of Mus musculus with 8 samples.

Results

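Matrix metalloproteinases and their tissue inhibitors were followed in cultured mouse embryonic fibroblasts of 4 genotypes. The group held 10 of the 19057 genes named on the array: the 7 proteinases Mmp2, Mmp3, Mmp9, Mmp10, Mmp11, Mmp13 and Mmp14, and the 3 inhibitors Timp1, Timp2 and Timp3. They were chosen by measured values of these same arrays, on which Mmp13 and Mmp9 were lower in knockouts than in wild type while Mmp3 followed neither. The members therefore carry no test against wild type here. Of their 18 probes, 15 passed the detection filter (detection p under 0.01 on both arrays of at least 1 genotype), with at least 1 probe for each gene. The other 3, ILMN_1249336 and ILMN_2799267 of Mmp13 and ILMN_1225091 of Mmp14, were above background on none of the 8 arrays. Of the 15, 10 were above background on all 8 arrays, and 2 passed through the DKO arrays alone, ILMN_2704576 of Mmp3 and ILMN_1232928 of Timp3.

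RNA came from 8 samples labelled by genotype, with 1 array each and 2 arrays per genotype: double knockouts of Gadd45a and Ing1 (DKO), Gadd45a-/-, Ing1-/- and wild type (WT). Gadd45a encodes a stress-response protein linked to DNA repair and demethylation, and Ing1 a chromatin reader of the inhibitor-of-growth family. All fibroblasts were taken from male C57BL/6 embryos at embryonic day 15.5 and collected confluent at passage 3, and the labels name no treatment beyond culture. The design speaks of duplicates for every fibroblast line. Both arrays of a genotype may thus come from 1 line, and every p-value below measures only the spread between these arrays. The sources used here do not say how each allele was made or which part of each gene it removes.

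Matrix metalloproteinases are zinc endopeptidases that are secreted or membrane-bound as inactive proforms and, once activated, cut collagens, proteoglycans, growth factors and other proproteinases. Tissue inhibitors of metalloproteinases bind their active sites. Fibroblasts are a main source of Mmp2, Mmp14 and the inhibitors, while collagenase and stromelysin genes are usually low at rest and are induced by cytokines and growth factors, in large part through AP-1 sites near their start. Most of these inducible genes lie in 1 cluster, which in mouse is on chromosome 9 and runs in the order Mmp13, Mmp12, Mmp1b, Mmp3, Mmp1a, Mmp10, Mmp8, Mmp27, Mmp20, Mmp7. Of these 10 genes 9 had a named probe, and 4 passed the detection filter: Mmp13, Mmp3, Mmp1a and Mmp10.

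The stretches before the starts of the 3 cluster members are shown because these neighbours are among the inducible genes of the family. Each gives the 250 bases before the RefSeq gene start (build GRCm38.p6, plus strand, 5′ to 3′), at chr9:7272264-7272513 for Mmp13, chr9:7445572-7445821 for Mmp3 and chr9:7502092-7502341 for Mmp10. Capitals mark the AP-1 motif TGANTCA, where N is any base.
Mmp13: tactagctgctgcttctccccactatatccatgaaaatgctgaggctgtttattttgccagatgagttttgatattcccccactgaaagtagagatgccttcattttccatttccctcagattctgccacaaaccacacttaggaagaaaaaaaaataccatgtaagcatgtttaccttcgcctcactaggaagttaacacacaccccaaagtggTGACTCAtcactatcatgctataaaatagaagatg
Mmp3: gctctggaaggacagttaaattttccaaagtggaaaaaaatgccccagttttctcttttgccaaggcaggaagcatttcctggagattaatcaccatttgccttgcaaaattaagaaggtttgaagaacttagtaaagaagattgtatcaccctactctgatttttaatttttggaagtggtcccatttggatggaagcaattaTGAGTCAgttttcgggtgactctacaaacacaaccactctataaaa
Mmp10: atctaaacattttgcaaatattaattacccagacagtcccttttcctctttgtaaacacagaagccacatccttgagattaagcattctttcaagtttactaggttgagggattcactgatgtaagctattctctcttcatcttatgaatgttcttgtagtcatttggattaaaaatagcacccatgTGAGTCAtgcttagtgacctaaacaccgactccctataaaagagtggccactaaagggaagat
The motif was TGACTCA at 35 to 29 bases before the start of Mmp13, TGAGTCA at 46 to 40 bases before that of Mmp3 and TGAGTCA at 63 to 57 bases before that of Mmp10. RefSeq promoters were at hand for 8 of the 10 members, all but Mmp2 and Mmp9, and the other 5, Mmp11, Mmp14, Timp1, Timp2 and Timp3, did not hold these letters on either strand. Among 32851 mouse promoters of the same length 6.75% held the AP-1 motif. The same 3 members held TATAAA, found in 12.4% of promoters. The RUNX motif ACCACA (14.0% of promoters) was found in Mmp13 and Mmp14. The ETS motif AGGAAG (29.5% of promoters) was found in Mmp3, Mmp13, Mmp14, Timp1 and Timp3. Both strands were searched, no 2 of these motifs overlapped in the 3 printed stretches, and a match is a run of letters, not a measured binding site.

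The arrays resembled each other in depth: 14277 to 14778 of 45281 probes were above background, median raw intensities were 112.9 to 149.8, and the 2 arrays of a genotype correlated at Pearson's r of 0.9876 to 0.9937 across 14867 kept probes. Gadd45a itself went against its label. Its 2 probes were higher than in WT on the arrays labelled DKO (log2 differences 0.92, adjusted p 0.00715, and 1.31, adjusted p 0.00375) and on those labelled Gadd45a-/- (1.00, adjusted p 0.0110, and 1.29, adjusted p 0.00911). Whether these probes lie outside the deleted part is not given, and the Ing1 probe, above background on none of the arrays, checks nothing. DKO and Gadd45a-/- below therefore mean the arrays so labelled, and directions rest on those labels. All 9 fibroblast markers with a named probe were measured, with summed linear intensities of 76610 to 80720 in DKO, 79520 to 83110 in Gadd45a-/-, 87250 to 87800 in Ing1-/- and 91290 to 94550 in WT. Of them Pdgfra was lower in DKO and Col3a1 in Gadd45a-/- than in WT. Epithelial markers summed to 529.5 to 534.2 in DKO, 413.4 to 438.0 in Gadd45a-/-, 308.7 to 324.9 in Ing1-/- and 218.9 to 271.8 in WT (4 of 8 measured, Epcam and Krt14 above background on no array). Pkp1 was higher than in WT in DKO and Gadd45a-/- (log2 1.79 and 1.19), as was Sfn (at least 2.04-fold and 1.87-fold), and Krt19 was at least 2.10-fold higher in DKO. Krt8, the other measured epithelial marker, passed in no knockout (log2 -0.42 in DKO, -0.24 in Gadd45a-/- and -0.22 in Ing1-/-). Of 6 endothelial markers only Emcn was measured, at least 2.43-fold higher than in WT in DKO and 2.21-fold in Ing1-/-, with Pecam1, Cdh5, Kdr, Tek and Esam above background on no array. The part of other cells in the results below was not tested.

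**Figure D1:**
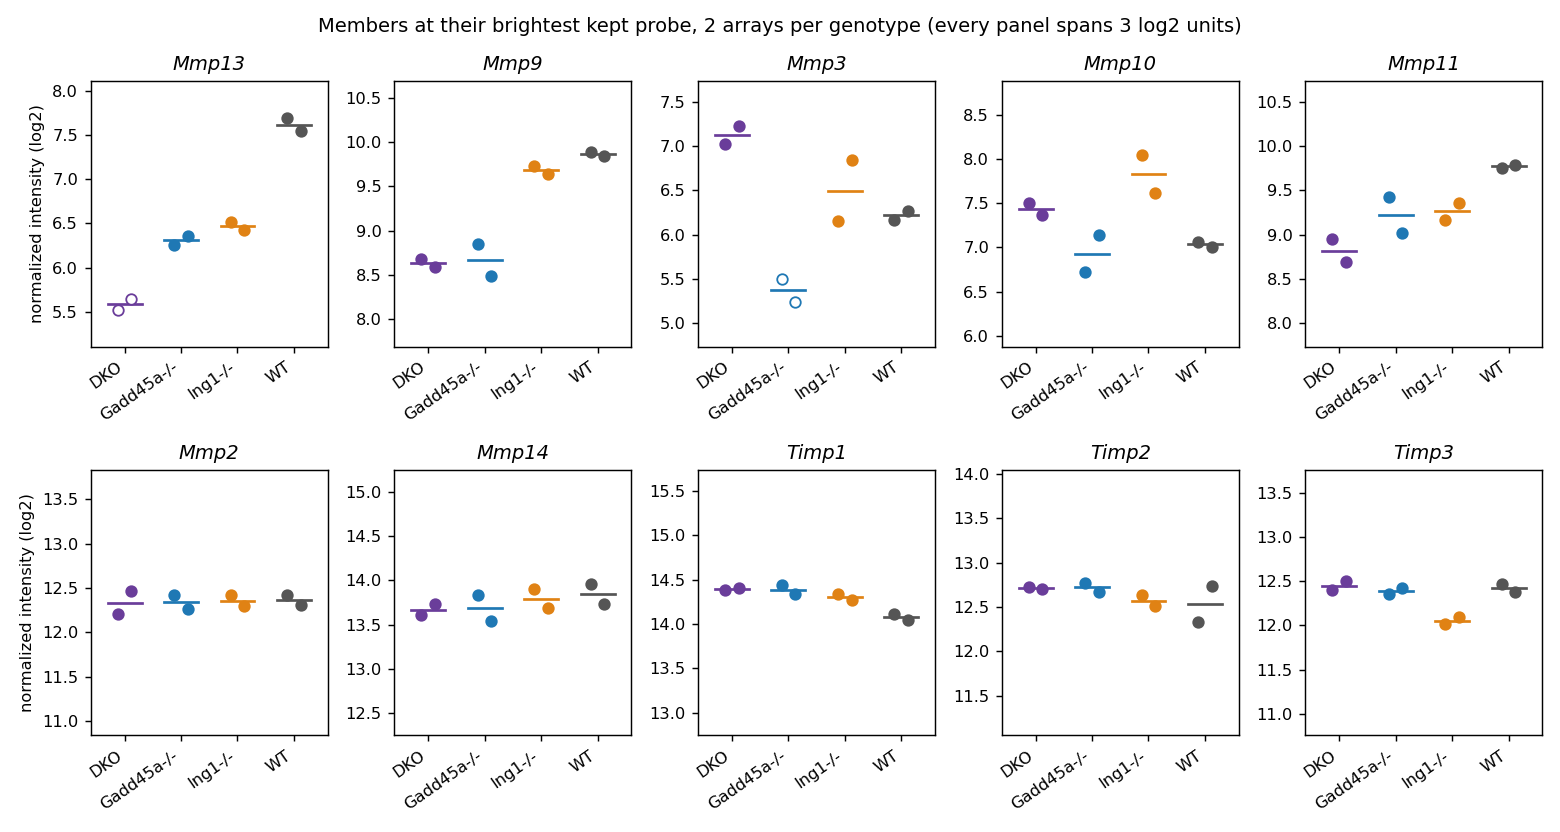
Log2 normalized intensity of the 10 members at their brightest kept probe, by genotype as labelled (DKO, Gadd45a-/-, Ing1-/-, WT). Points are arrays, 2 per genotype, bars are means, and open points were not above background; every panel spans 3 log2 units, and levels are not comparable between panels. Mmp13 falls in steps to 5.53 and 5.65 in DKO, Mmp9 is low in DKO and Gadd45a-/-, Mmp3 is highest in DKO and lowest in Gadd45a-/-, and the lower row stays within 0.5 log2 units.

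Mmp13, the main collagenase of the mouse and a gene of cartilage and bone, was dimmest in DKO and brightest in WT at its only probe above background (ILMN_2737685). Its log2 normalized intensity was 5.53 and 5.65 on the DKO arrays, 6.26 and 6.36 on the Gadd45a-/- arrays, 6.51 and 6.43 on the Ing1-/- arrays, and 7.69 and 7.55 on the WT arrays. No 2 genotypes overlapped, with both single knockouts between DKO and WT. Neither DKO array was above background (detection p 0.0385 and 0.0235), so the DKO level has only an upper bound. Mmp13 was at least 3.20-fold lower in DKO than in WT, a bound in which each DKO array counts at the dimmest signal detected on it, or at the probe's own signal where that is higher. The log2 difference from WT was -1.31 in Gadd45a-/- and -1.15 in Ing1-/-. These differences chose the gene and are descriptions.

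The knockouts were compared with each other by limma across all 14867 kept probes, with Benjamini-Hochberg adjustment and a threshold of 0.05. These contrasts share their knockout arrays with the differences that chose the members, and so are not independent of that choice. Mmp13 was lower in DKO than in Ing1-/- (log2 difference -0.88 ± 0.12 SE, at least 1.44-fold, adjusted p 0.0195). DKO minus Gadd45a-/- was -0.72 ± 0.12 and missed the threshold (adjusted p 0.0627). Gadd45a-/- minus Ing1-/- was -0.16, with a 95% interval of -0.44 to 0.11 (adjusted p 0.819). The call between DKO and Ing1-/- was lost on leaving out either DKO or either Ing1-/- array (adjusted p 0.114 to 0.175), with median scaling (0.110), without background correction (-0.31, 0.148), without the detection filter (0.0528) and with a trended, robust prior (0.0546). With array weights DKO minus Gadd45a-/- passed the threshold (0.0397). Of the cartilage and bone markers set beside Mmp13, 4 were measured and did not share 1 direction. The cartilage collagen gene Col2a1 was higher than in WT in DKO (log2 2.99, adjusted p 0.000114), Gadd45a-/- (3.81, adjusted p 3.52e-05) and Ing1-/- (1.29, adjusted p 0.00957, with its 2 other probes at 0.81 and 0.74 not passing). Sp7, a bone transcription factor, was at least 2.44-fold higher in DKO (adjusted p 0.0104), did not pass in Gadd45a-/- (log2 1.28, adjusted p 0.0508) and stood at -0.21 in Ing1-/- (adjusted p 0.814). Acan, the cartilage proteoglycan aggrecan, was at least 1.24-fold higher in Gadd45a-/- (adjusted p 0.0301) and did not pass in DKO (0.44) or Ing1-/- (-0.05). Sox9, a cartilage transcription factor, passed in no knockout, at -0.38 in DKO, -0.15 in Gadd45a-/- and -0.10 in Ing1-/-. The list summed to 2117 to 2517 in DKO, 2980 to 3087 in Gadd45a-/-, 1974 to 2232 in Ing1-/- and 2055 to 2206 in WT, with 4 of 9 genes with a probe measured and Col10a1, Col9a1, Ibsp, Alpl and Bglap above background on no array. Their part in the Mmp13 levels was not tested, and in bulk RNA fewer cells of a type and less RNA per cell cannot be told apart.

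Mmp9, the gelatinase that cleaves denatured collagen and basement-membrane collagen, was lower than in WT on the DKO and Gadd45a-/- arrays, while Ing1-/- stayed near WT. It read 8.67 and 8.59 in DKO, 8.85 and 8.48 in Gadd45a-/-, 9.72 and 9.64 in Ing1-/-, and 9.89 and 9.84 in WT (probe ILMN_2711075). The 4 arrays of DKO and Gadd45a-/- lay below all others, Ing1-/- lay just below WT, and DKO fell within the range of Gadd45a-/-. The log2 difference from WT was -1.23 in DKO, -1.20 in Gadd45a-/- and -0.18 in Ing1-/-. Mmp9 was lower in DKO than in Ing1-/- (-1.05 ± 0.14 SE, adjusted p 0.0199) and lower in Gadd45a-/- than in Ing1-/- (-1.01 ± 0.14 SE, adjusted p 0.0283). DKO minus Gadd45a-/- was -0.04, with a 95% interval of -0.36 to 0.29 (adjusted p 0.956). The call between DKO and Ing1-/- was lost on leaving out either DKO or either Ing1-/- array (adjusted p 0.117 to 0.175) and without the detection filter (0.0573). That between Gadd45a-/- and Ing1-/- was lost without Gadd45a-/- replicate 2 (0.154), either Ing1-/- array (0.161 and 0.203) or either DKO array (0.0762), with median scaling (0.104) and without the detection filter (0.0777).

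Mmp9 is also a product of macrophages, neutrophils and osteoclasts, so markers of these cells are set beside it. Of 11 macrophage markers with a probe 6 were measured, and 5 of these were higher in Gadd45a-/- than in WT: Lyz2 (log2 0.83), Fcer1g (1.02), C1qb (1.87), C1qc (1.36) and Cd52 (at least 2.06-fold). Another Lyz2 probe did not pass in Gadd45a-/- (0.54, adjusted p 0.594). C1qb was higher in Ing1-/- too (1.60), and no macrophage marker passed in DKO. Their summed intensity was 537.1 to 543.6 in DKO, 1186 to 1250 in Gadd45a-/-, 875.5 to 1015 in Ing1-/- and 532.3 to 578.2 in WT. The defining markers Ptprc, Tyrobp and Adgre1 were above background on no array, nor were any of the 7 neutrophil markers with a probe. Of 6 osteoclast markers only Ctsk and Oscar were measured, summing to 3287 to 3326 in DKO, 3438 to 3584 in Gadd45a-/-, 4419 to 4778 in Ing1-/- and 5507 to 5976 in WT. Nearly all of this sum was Ctsk, at log2 11.67 to 12.53 over the arrays, against 5.12 to 6.14 for Oscar. Oscar was above background on the WT arrays alone. Acp5, Calcr, Dcstamp and Atp6v0d2 were above background on no array, Ctsk is also made by fibroblasts, and the part of such cells in the Mmp9 levels was not tested.

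Mmp3, or stromelysin, a broad matrix proteinase that also activates procollagenases, was highest in DKO at each of its 3 probes, and lowest in Gadd45a-/- at the brightest. There, at ILMN_2899041, it read 7.02 and 7.23 in DKO, 5.50 and 5.24 in Gadd45a-/-, 6.15 and 6.84 in Ing1-/-, and 6.16 and 6.27 in WT. DKO lay above every other array and Gadd45a-/- below every other, while Ing1-/- overlapped WT. At ILMN_2753809 it read 6.72 and 6.98 in DKO, 5.49 and 4.88 in Gadd45a-/-, 6.24 and 6.02 in Ing1-/-, and 5.24 and 5.60 in WT. At ILMN_2704576 it read 6.47 and 6.08 in DKO, 5.21 and 4.87 in Gadd45a-/-, 5.89 and 6.01 in Ing1-/-, and 5.46 and 5.53 in WT. Here Ing1-/- lay above WT at both probes, and WT was not above background at either. Gadd45a-/- was not above background at any of the 3, so Mmp3 has only an upper bound there, and WT and Gadd45a-/- have no order at the dimmer pair.

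Against WT, Mmp3 was at least 1.89-fold higher in DKO at ILMN_2753809, at least 1.27-fold higher at ILMN_2704576 and higher by 0.91 on the log2 scale at ILMN_2899041. Gadd45a-/- was at least 1.25-fold lower than WT at ILMN_2899041, the only probe on which WT was measured. Ing1-/- was at least 1.15-fold and 1.01-fold higher at the dimmer pair and higher by 0.28 at ILMN_2899041. Between the knockouts, Mmp3 was higher in DKO than in Gadd45a-/-, at least 2.35-fold at ILMN_2899041 (log2 1.76 ± 0.22 SE, adjusted p 0.0298) and at least 1.94-fold at ILMN_2753809 (1.66 ± 0.22 SE, adjusted p 0.0359). At ILMN_2704576 the difference was at least 1.30-fold (1.23 ± 0.17 SE, adjusted p 0.0382). That probe passed the detection filter through DKO alone, the genotype where it is high. Mmp3 was chosen on values of these same arrays, so none of these differences is independent support. DKO minus Ing1-/- was 0.63, 0.72 and 0.32 in the same probe order and passed at none (adjusted p 0.311, 0.248 and 0.539). Gadd45a-/- minus Ing1-/- was -1.13, -0.94 and -0.91 and passed at none (adjusted p 0.0955, 0.176 and 0.0845), except at ILMN_2899041 under median scaling (0.0439).

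The Mmp3 calls were lost on leaving out some single arrays, which also lowers the residual degrees of freedom. Leaving out an Ing1-/- array does not change the DKO minus Gadd45a-/- difference itself. At ILMN_2899041 the call was lost without either Gadd45a-/- or either DKO array (adjusted p 0.159 to 0.236). At ILMN_2753809 and ILMN_2704576 it was lost without any 1 of the Gadd45a-/-, Ing1-/- or DKO arrays (0.0686 to 0.270 and 0.0912 to 0.297). No probe passed without the detection filter (0.0884 to 0.108), and ILMN_2704576 also failed without background correction (0.41, 0.0983) and with a trended, robust prior (0.0521). The difference was positive at all 3 probes in each of these fits. This adds no independent support, since Mmp3 was chosen on values of these arrays. ILMN_2704576 was also kept through DKO alone.

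**Figure D2:**
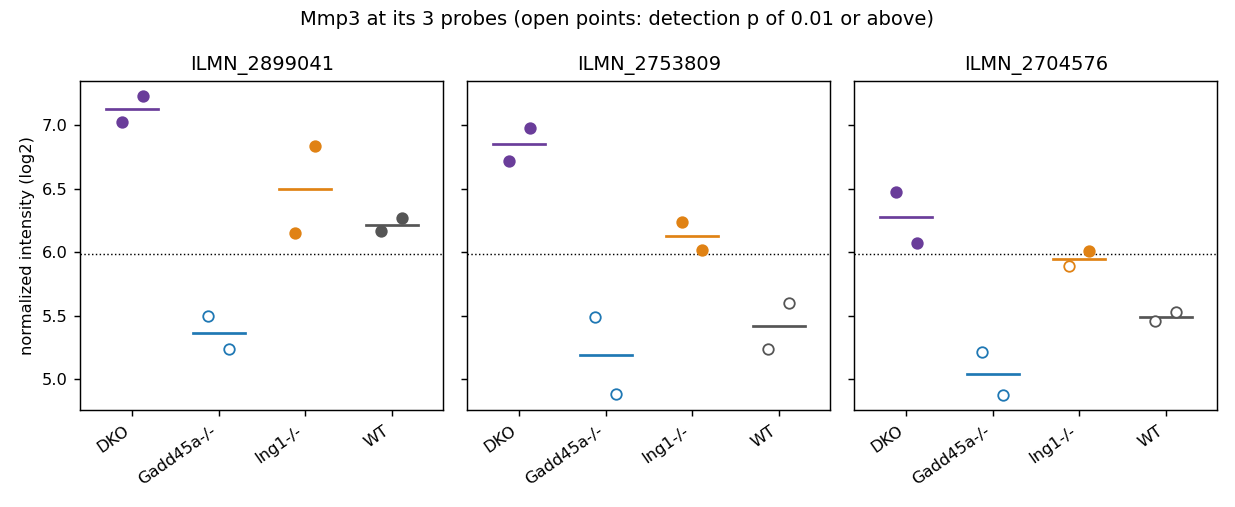
Log2 normalized intensity of Mmp3 at each of its 3 probes, by genotype as labelled; points are arrays, bars are means of 2 arrays, and open points were not above background. The dotted line, at 5.99, is the highest among the arrays of the lowest signal detected on an array. At each probe both DKO points lie above it and both Gadd45a-/- points below it.

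Mmp10, the second stromelysin of the cluster, was highest in Ing1-/-. It read 7.51 and 7.36 in DKO, 6.72 and 7.14 in Gadd45a-/-, 8.04 and 7.62 in Ing1-/-, and 7.06 and 7.01 in WT. Ing1-/- lay above all other arrays and DKO next, while Gadd45a-/- overlapped WT. The log2 difference from WT was 0.40 in DKO, -0.11 in Gadd45a-/- and 0.79 in Ing1-/-. No contrast between knockouts passed: DKO minus Gadd45a-/- was 0.51 (adjusted p 0.397), DKO minus Ing1-/- was -0.39 (0.479), and Gadd45a-/- minus Ing1-/- was -0.90 ± 0.19 (0.112). By genotype means of the 3 measured members of the cluster, Mmp13 was lowest in DKO and Mmp10 highest in Ing1-/-. Mmp3 was highest in DKO and, at its brightest probe, lowest in Gadd45a-/-. Means of Mmp3 at that probe and of Mmp10 differed in order only in DKO against Ing1-/-, a contrast that passed for neither gene. Mmp1a, another collagenase gene of the cluster and no member, passed the test against WT in no knockout (log2 0.30, 0.45 and 0.37 in DKO, Gadd45a-/- and Ing1-/-, adjusted p 0.634, 0.533 and 0.649).

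Mmp11, a stromelysin activated inside the secretory pathway, was lower than in WT on every knockout array. It read 8.95 and 8.69 in DKO, 9.43 and 9.02 in Gadd45a-/-, 9.16 and 9.36 in Ing1-/-, and 9.76 and 9.78 in WT. DKO lay below all other arrays, and the single knockouts overlapped each other. The log2 difference from WT was -0.95 in DKO, -0.55 in Gadd45a-/- and -0.51 in Ing1-/-. DKO minus Gadd45a-/- was -0.40 (adjusted p 0.468) and DKO minus Ing1-/- was -0.44 (0.358), neither past the threshold, and Gadd45a-/- minus Ing1-/- was -0.04, with a 95% interval of -0.43 to 0.35.

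The 2 constitutive proteinases of fibroblasts were bright and nearly level. Mmp2, the second gelatinase, read 12.21 and 12.46 in DKO, 12.42 and 12.27 in Gadd45a-/-, 12.42 and 12.29 in Ing1-/-, and 12.42 and 12.31 in WT. All 4 genotypes overlapped, and each knockout mean was within 0.03 log2 units of WT. Mmp14, the membrane-bound activator of pro-Mmp2, read 13.61 and 13.74 in DKO, 13.83 and 13.54 in Gadd45a-/-, 13.90 and 13.68 in Ing1-/-, and 13.96 and 13.73 in WT. Its log2 differences from WT were -0.17 in DKO, -0.16 in Gadd45a-/- and -0.05 in Ing1-/-, again with overlapping arrays. Between knockouts the 95% intervals of Mmp2 ran from -0.33 to 0.30 and those of Mmp14 from -0.47 to 0.34 at their widest.

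Among the inhibitors, Timp1, which is secreted and binds most secreted proteinases of the family, was slightly higher on every knockout array than on either WT array. At ILMN_3103896 it read 14.39 and 14.41 in DKO, 14.44 and 14.34 in Gadd45a-/-, 14.33 and 14.27 in Ing1-/-, and 14.11 and 14.04 in WT. At ILMN_2769918 it read 14.41 and 14.27 in DKO, 14.43 and 14.28 in Gadd45a-/-, 14.26 and 14.21 in Ing1-/-, and 14.01 and 14.03 in WT. The log2 differences from WT at ILMN_3103896 and ILMN_2769918 were 0.32 and 0.32 in DKO, 0.31 and 0.33 in Gadd45a-/-, and 0.23 and 0.21 in Ing1-/-. With median scaling, which moved the median of all kept probes against WT by -0.17 in DKO, -0.10 in Gadd45a-/- and -0.19 in Ing1-/-, they were 0.22 and 0.21 in DKO, 0.28 and 0.28 in Gadd45a-/-, and 0.06 and 0.05 in Ing1-/-. No contrast between knockouts passed (log2 -0.01 to 0.12, adjusted p 0.798 to 0.986).

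Timp2, which also takes part in the activation of pro-Mmp2 by Mmp14, read 12.72 and 12.70 in DKO, 12.77 and 12.67 in Gadd45a-/-, 12.63 and 12.51 in Ing1-/-, and 12.33 and 12.74 in WT. The WT arrays spanned every knockout array but 1, so no difference from WT stood out from the spread (log2 0.18, 0.19 and 0.04 in DKO, Gadd45a-/- and Ing1-/-, the last -0.15 with median scaling). Timp3, the inhibitor bound to the matrix, was lowest in Ing1-/- at its 2 brighter probes. At ILMN_2741096 it read 12.40 and 12.50 in DKO, 12.35 and 12.42 in Gadd45a-/-, 12.02 and 12.09 in Ing1-/-, and 12.46 and 12.38 in WT. At ILMN_2614759 it read 8.76 and 8.98 in DKO, 8.69 and 9.08 in Gadd45a-/-, 8.49 and 8.37 in Ing1-/-, and 9.08 and 8.95 in WT. Both Ing1-/- arrays lay below all others there, by -0.37 and -0.59 on the log2 scale against WT, while DKO and Gadd45a-/- overlapped WT. DKO minus Ing1-/- was 0.40 (adjusted p 0.191) and 0.44 (0.327), and Gadd45a-/- minus Ing1-/- was 0.33 (0.404) and 0.45 (0.435). None passed, except ILMN_2741096 in DKO minus Ing1-/- with a trended, robust prior (0.0371). The dim probe ILMN_1232928 gave no such order, at 6.10 and 6.41 in DKO, 5.66 and 6.13 in Gadd45a-/-, 5.64 and 6.33 in Ing1-/-, and 5.88 and 5.85 in WT, where it was not above background.

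**Figure D3:**
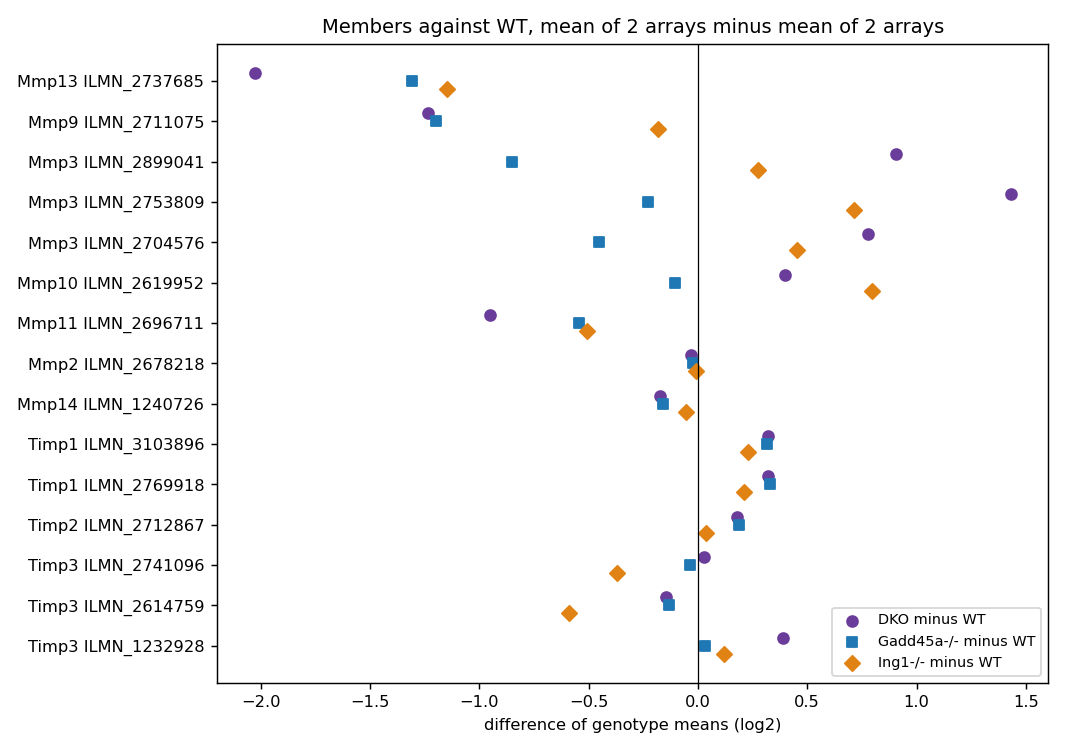
Difference of each knockout mean from the WT mean (log2, 2 arrays each) at the 15 kept member probes, for DKO (circles), Gadd45a-/- (squares) and Ing1-/- (diamonds), as labelled. Differences of Mmp13, Mmp11, Mmp9, Mmp14, Mmp2 (only just) and Timp3 at ILMN_2614759 are negative in all 3. Those of Timp1, Timp2 and Timp3 at ILMN_1232928 are positive in all 3, and the Mmp3 probes lie on both sides. These differences chose the members and are shown without a test.

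Counted over the 15 kept member probes, 6 were lower and 9 higher than WT in DKO, 11 lower and 4 higher in Gadd45a-/-, and 7 lower and 8 higher in Ing1-/-. Differences were within 0.4 log2 units at 9 probes in DKO, 10 in Gadd45a-/- and 9 in Ing1-/-. The largest falls were those of Mmp13 in each knockout. The largest rises were those of Mmp3 in DKO (1.43 at ILMN_2753809, measured against a WT level below background), Timp1 in Gadd45a-/- (0.33) and Mmp10 in Ing1-/- (0.79). Between knockouts, 3 of 15 member probes passed in DKO minus Gadd45a-/- (0.39% of all kept probes did), all of Mmp3 and higher in DKO, 1 of them kept through DKO alone. In DKO minus Ing1-/- 2 of 15 passed, Mmp9 and Mmp13, lower in DKO (1.11% of all kept probes). In Gadd45a-/- minus Ing1-/- 1 of 15 passed, Mmp9, lower in Gadd45a-/- (0.659% of all kept probes). Since values of these knockout arrays chose the members, nothing is read from these shares. The median member difference was -0.01, 0.11 and -0.09 in the 3 contrasts, against -0.01, -0.01 and 0.00 over all kept probes. When 1 array was left out at a time, the member counts ranged over 0 to 3, 0 to 2 and 0 to 1, and the calls over all kept probes (58, 165 and 98) over 4 to 74, 5 to 178 and 21 to 93.

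**Figure D4:**
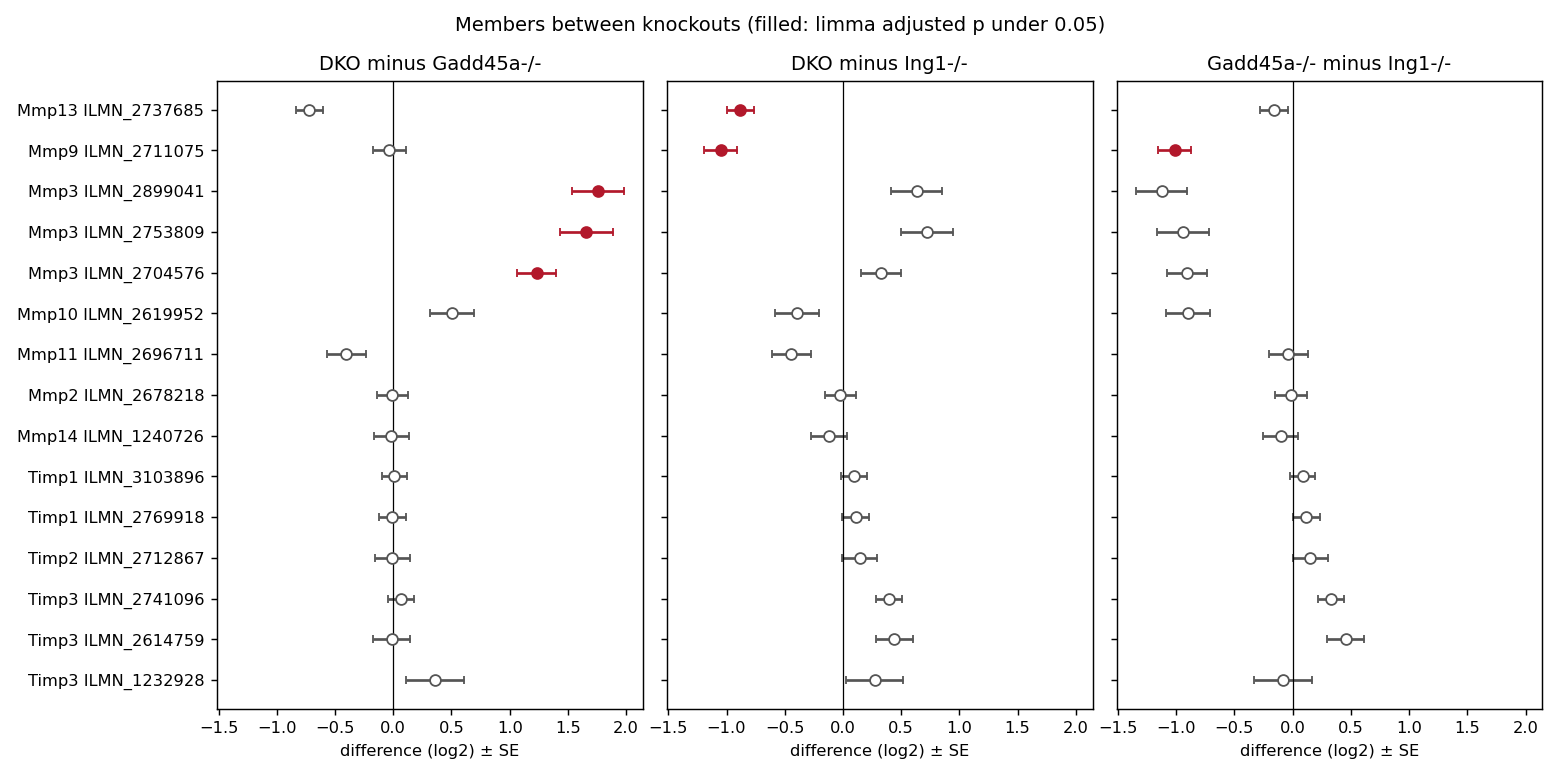
Log2 difference ± SE between knockouts as labelled (DKO minus Gadd45a-/-, DKO minus Ing1-/-, Gadd45a-/- minus Ing1-/-) at the 15 kept member probes, 2 arrays per genotype. Filled points had a limma adjusted p under 0.05: the 3 Mmp3 probes in the first panel, Mmp13 and Mmp9 in the second and Mmp9 in the third.

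Kept probes of other genes were ranked by how closely they followed 3 members over the 8 arrays, as a description: the arrays share genotypes, and the ranking took the best of all named kept probes. Closest to Mmp13 were Hoxd8, a homeobox gene (Pearson's r 0.993), Traf2, an adaptor of tumour necrosis factor receptors (0.984), and Tgfbr2, a receptor of transforming growth factor beta (0.983). Each was lowest in DKO and highest in WT, Hoxd8 with mean log2 levels of 8.53 in DKO, 8.98 in Gadd45a-/-, 8.97 in Ing1-/- and 9.56 in WT. Closest to Mmp9 were Slc35d2, a nucleotide-sugar transporter (0.971), Nrep (0.970) and Reck, a membrane-anchored inhibitor of metalloproteinases (0.968). Reck averaged 7.68 in DKO, 7.62 in Gadd45a-/-, 7.90 in Ing1-/- and 8.00 in WT. Closest to Mmp3 at ILMN_2899041 were Mfap5, a microfibril gene (0.949), Tmem267 (0.937) and Saraf, a regulator of store-operated calcium entry (0.925). All of them were lowest in Gadd45a-/- and highest in DKO, with Mfap5 at 9.66 in DKO, 8.52 in Gadd45a-/-, 9.33 in Ing1-/- and 9.14 in WT.

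The rest of the matrix-degrading system was read from lists of 140 genes that are not members, of which 129 had a named probe and 93 were measured, each at its brightest kept probe. Against WT 14 genes passed in DKO, 6 higher and 8 lower (15.1%, against 4.41% of all 8655 measured genes). In Gadd45a-/- 9 passed, 5 higher and 4 lower (9.68%, against 1.63%). In Ing1-/- none passed by limma (0.485% of all genes did), with 18 at an unadjusted p under 0.05. The share of all genes at that unadjusted threshold was not counted, so nothing is read from such counts here or below. The median difference was -0.06 in DKO, -0.10 in Gadd45a-/- and -0.01 in Ing1-/-, against 0.01, 0.01 and 0.02 over all measured genes. The split of higher and lower moved with scaling: 2 and 8 in DKO with median scaling, 4 and 12 without background correction, and 5 and 11 with an offset of 50, and 5 and 8 in Gadd45a-/- without background correction. Without 1 array the counts were 2 to 12 in DKO and 1 to 7 in Gadd45a-/-, and their lists were chosen with earlier results of these arrays known.

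Of the other metalloproteinases 6 were measured (Mmp1a, Mmp16, Mmp17, Mmp23, Mmp24 and Mmp28) and none passed against WT in any knockout, nor did the other inhibitors Cst3, Pcolce and Reck. At an unadjusted p under 0.05 stood 2 of the 6 in Gadd45a-/- and none in DKO or Ing1-/-, and 1 of the 3 inhibitors in DKO and in Gadd45a-/-. These counts have no share of all genes beside them. Mmp16, a membrane-type proteinase, came nearest, 0.88 higher in Gadd45a-/- on the log2 scale (adjusted p 0.0800). Mmp7, Mmp8, Mmp12, Mmp1b, Mmp19, Mmp20, Mmp21, Mmp25 and Timp4 were above background on no array. Of the plasminogen and convertase genes, which activate proproteinases, 2 of 8 passed in DKO: Plat, the tissue plasminogen activator, was lower (-0.73 ± 0.11 SE, adjusted p 0.0128) and Plaur, the urokinase receptor, higher (0.65 ± 0.13, adjusted p 0.0353).

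Of 12 measured ADAM and ADAMTS genes 3 passed in DKO. Adamts4 was lower (-0.88, adjusted p 0.0165), Adamts9 lower at its brightest probe (-0.73, adjusted p 0.0187) but not at another (0.09, adjusted p 0.868), and Adamts12 higher (0.73, adjusted p 0.0172). Adamts4 and Adamts9 are aggrecanases. Of 8 cathepsins and other matrix proteinases 3 passed in DKO and 2 in Gadd45a-/-. Ctsk, cathepsin K, was lower in both (-0.80 in DKO, adjusted p 0.00902; -0.71 in Gadd45a-/-, adjusted p 0.0288), as was the serine proteinase Htra1 (-0.64, adjusted p 0.0336, and -0.99, adjusted p 0.0123). Another Htra1 probe passed in Gadd45a-/- (-1.08, adjusted p 0.0286) but not in DKO (-0.58, adjusted p 0.132). Tll1, a procollagen-processing proteinase, was higher in DKO (0.68, adjusted p 0.0488).

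The list of AP-1 and other promoter factors held 18 genes, of which 15 had a named probe and were measured. Runx2 had no named probe. None of the 15 passed against WT in any knockout, with medians of -0.10 in DKO, 0.02 in Gadd45a-/- and -0.02 in Ing1-/-. At an unadjusted p under 0.05 stood 5, 3 and 3 of them, with no share of all genes to set beside these counts. In DKO, Fos stood at -0.75 (adjusted p 0.156) and Fosb at 0.75 (0.374), with Jun at 0.19 (0.534) and Junb at 0.39 (0.144). Nearest to the threshold there were Ets2 (-0.46, 0.0726) and Cebpb (-0.50, 0.0729). Of 11 measured inducing cytokines, growth factors and receptors 4 passed in DKO and 2 in Gadd45a-/-. Il1rn, the antagonist of interleukin-1 receptors, was at least 1.42-fold higher in DKO (adjusted p 0.00847) and at least 2.64-fold higher in Gadd45a-/- (adjusted p 0.00196), and Fgf2, a fibroblast growth factor, at least 1.60-fold (adjusted p 0.00531) and 1.65-fold (adjusted p 0.0101). Il1rn was above background on neither WT array, nor was Fgf2. Pdgfra, a platelet-derived growth factor receptor, was lower in DKO (-1.21, adjusted p 0.00295), as was Tgfbr2 (-0.71, adjusted p 0.0120).

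Among 19 measured collagens and other substrates, Dcn, the collagen-binding proteoglycan decorin, was lower in DKO (-1.74 ± 0.12 SE, adjusted p 0.000763, and -1.94 at a second probe) and in Gadd45a-/- (-0.89 ± 0.12, adjusted p 0.0186, and -1.19 at that probe). It read 9.88 and 9.87 in DKO, 10.84 and 10.60 in Gadd45a-/-, 10.89 and 11.02 in Ing1-/-, and 11.59 and 11.63 in WT. Its genotypes stood in the order of those of Mmp13, without overlap between WT and any knockout. Dcn was the only substrate that passed in DKO. In Gadd45a-/- Eln, elastin, was higher (1.57, adjusted p 0.0225), Acan, aggrecan, at least 1.24-fold higher (adjusted p 0.0301), and Col3a1 lower at its brightest probe (-1.15, adjusted p 0.0392) but not at another (-0.48, adjusted p 0.538). Of 11 surface docking and uptake genes only Sdc4, a syndecan, passed, higher in DKO (0.71, adjusted p 0.0183) and Gadd45a-/- (0.80, adjusted p 0.0222). The calls of Dcn and Pdgfra in DKO and of Il1rn in Gadd45a-/- held whichever array was left out, while each other call of these lists did not. The other 12 calls in DKO were each lost without either DKO array, and the other 8 in Gadd45a-/- without WT replicate 2 and without Gadd45a-/- replicate 1, with highest adjusted p of 0.0563 (Fgf2 in DKO) to 0.263 (Tll1 in DKO).

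**Figure D5:**
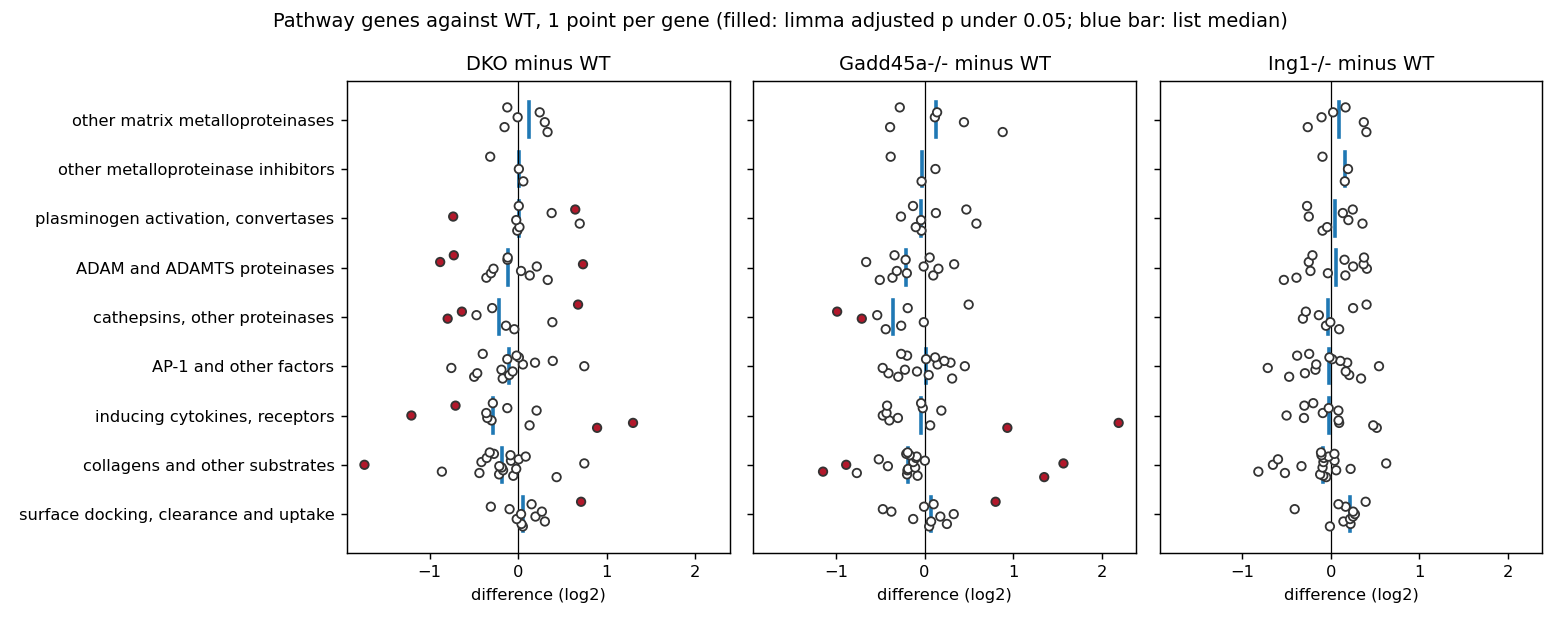
Log2 difference from WT of the 93 measured genes of 9 lists around the members, 1 point per gene, for DKO, Gadd45a-/- and Ing1-/- as labelled, with each list's median as a blue bar. Filled points had a limma adjusted p under 0.05: 14 in DKO, 9 in Gadd45a-/- and none in Ing1-/-.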

How the data were processed

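Illumina mouse BeadArrays with 1 colour measured RNA of 8 samples. Total RNA was purified on columns with DNase and labelled as biotinylated cRNA, per the labels' protocols. The authors' deposited non-normalized table gives each probe's average intensity, linear and not normalized, beside a detection p-value, per the file headers. GenomeStudio 2011.1 is named in the submitters' processing notes, without its role. The authors' second deposited table of intensity values, used as an alternative, ranked the probes of every array as the raw table does. It had 34.5% of values below 0, so it looks linear and background-subtracted. Its median differences from WT over all kept probes were 0.007 in DKO, 0.004 in Gadd45a-/- and 0.011 in Ing1-/-. Those of the main fit were 0.007, 0.004 and 0.012. The table thus also looks normalized between arrays and is no independent check of the scaling. Its method is not stated.

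Background correction and quantile normalization used neqc of limma 3.58.1 (R 4.3.3), with negative controls derived from detection p-values, an offset of 16 and log2 values. Of 45281 probes 14867 were kept. Genes were named from probes with 1 symbol (34885; 18 had several and 10378 none) in the platform annotation, updated by gene identifier. The limma model gave each genotype 1 mean over all 8 arrays, with eBayes (residual df 4). It was run on data simulated from the fitted model itself, which checks the code and not the calls made here. P-values were adjusted by Benjamini-Hochberg over all kept probes of a contrast, with a threshold of 0.05. No slide or scan batch was analysed here. Fold changes of dim probes are understated by the offset.

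The members and lists were chosen with earlier results of these data known. Named are every member probe, Gadd45a and Ing1, up to 4 called genes of the largest difference in each list and contrast, the 3 probes most like Mmp13, Mmp9 and Mmp3, and called markers. Some genes and markers that were not called are named beside them. Alternatives covered scaling, background correction, offset, the authors' values, detection filters, a replicate block, eBayes settings, array weights and each array left out.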

Additional observations from a re-analysis of the deposited data

Results flagged for a closer look

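In all, 6 differences between knockouts passed the test of the difference itself. The members were chosen on these same arrays, and for each call there were 4 to 6 arrays of the 8 whose loss alone ended it, so none is independent evidence. Mmp3 was higher in DKO than in Gadd45a-/-, at least 2.35-fold at ILMN_2899041 (measured log2 difference 1.76) and at least 1.94-fold at ILMN_2753809 (1.66), with Gadd45a-/- not above background. At ILMN_2704576, kept through DKO alone, the bound was 1.30-fold (1.23). Mmp9 was lower than in Ing1-/- in DKO (log2 difference -1.05) and in Gadd45a-/- (-1.01). Mmp13 was at least 1.44-fold lower in DKO than in Ing1-/- (-0.88), with DKO not above background. With 2 arrays per genotype, single deviant arrays were not searched for.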

How the results depend on the processing

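No difference between knockouts that passed at a member probe, here or in an alternative, turned its direction in any of the 17 alternatives. Of the 45 differences of member probes from WT, 30 kept their direction in every alternative; of these 45, Timp2 (Ing1-/-), Timp3 and Mmp2 turned under another scaling, all within 0.15 log2 units of 0. The count of member probes called in DKO minus Gadd45a-/- (3) was 0 without the detection filter and 0 with detection on all arrays, which leaves out all 3 Mmp3 probes before any test. That in DKO minus Ing1-/- (2) was 0 without the detection filter, and 1 each with median scaling, no background correction and detection on all arrays, where Mmp13 could not be fitted. That in Gadd45a-/- minus Ing1-/- (1) was 0 without the detection filter. Pathway genes called in Gadd45a-/- minus WT (9) were 3 without the detection filter and 15 with a trended, robust prior. Those in Ing1-/- minus WT (0) were 1 with median scaling, 2 without background correction, 1 with an offset of 50 and 4 with a trended, robust prior. Leaving out 1 array at a time gave 0 to 3, 0 to 2 and 0 to 1 member probes in the 3 contrasts between knockouts, and 2 to 12, 1 to 7 and 0 to 0 pathway genes against WT in DKO, Gadd45a-/- and Ing1-/-. Leaving out an array also lowers the residual df of every contrast. Over all kept probes, calls against WT (565, 198 and 62 in DKO, Gadd45a-/- and Ing1-/-) ranged over 317 to 842, 87 to 335 and 20 to 140 in the other alternatives, and those between knockouts (58, 165 and 98) over 17 to 110, 56 to 280 and 36 to 161. Leaving out 1 array gave 140 to 496, 37 to 140 and 7 to 24 against WT, and 4 to 74, 5 to 178 and 21 to 93 between knockouts. Replicate numbers are shared by the genotypes, but the labels do not say that they pair samples: deviations of replicate 1 from its genotype mean correlated at -0.09 to 0.28 between genotypes. With a replicate block 2, 2 and 1 member probes and 11, 9 and 0 pathway genes were called, and Mmp3 at ILMN_2753809 missed the threshold in DKO minus Gadd45a-/- (adjusted p 0.0591). The causes were not tested. Dim probes limit the precision: Mmp3 in Gadd45a-/- and Mmp13 in DKO have only bounds.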
